A study of Homo sapiens with 12 samples.

Results

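The Wnt pathway genes described here were the 57 genes, among 60558 present in both deposited tables, that encode the WNT ligands (19 genes), the Frizzled receptors (10), the co-receptors LRP5 and LRP6, the receptors LGR4, LGR5 and LGR6, the R-spondins (4), the ubiquitin ligases RNF43 and ZNRF3, the secreted inhibitors of the DKK (4) and SFRP (4) families, AXIN1, AXIN2, APC and GSK3B, beta-catenin (CTNNB1) and the TCF/LEF transcription factors (4). They were chosen by gene symbol. The only antisense name matched, WNT5A-AS1, was left out. The RNA came from MDA-MB-231, an established human triple-negative breast cancer cell line. Poly(A)-selected RNA was sequenced from 4 groups of 3 libraries, namely NONO-knockdown cells and their own negative control (NC), and PKM2-knockdown cells and a separate NC group. NONO is an RNA- and DNA-binding protein of the nucleus, and PKM2 is a spliced form of the glycolytic enzyme pyruvate kinase. The NC cells carry the label WT and no knockdown. The series describes the knockdowns as siRNA knockdowns. The time after transfection and the siRNA of each library are not given in the sources used here, and nothing in the labels says that the 3 libraries of a group came from separate cultures, so the p-values measure only the spread between these libraries.

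Secreted WNT proteins bind a Frizzled receptor together with LRP5 or LRP6. Without this signal a complex built on AXIN and APC, with the kinase GSK3B, marks beta-catenin for degradation, and with it beta-catenin reaches the nucleus and acts with TCF/LEF factors on target genes. R-spondins bound to LGR receptors keep RNF43 and ZNRF3 from removing Frizzled receptors from the cell surface, and WNT5A and related ligands also signal without beta-catenin. In breast, Wnt signalling is known for its part in the stem cells of the mammary gland.

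The targeted genes fell in every knockdown library. NONO was at 233, 222 and 227 TPM (a level scaled by transcript length and library size) in its NC libraries and at 48.3, 50.1 and 47.2 TPM after NONO knockdown. PKM was at 1806, 1769 and 1838 TPM in its NC libraries and at 170, 170 and 164 TPM after PKM2 knockdown, a value for the whole gene that cannot separate PKM1 from PKM2. The cells carried the RNA of mesenchymal-like markers in all 12 libraries (VIM, CD44, AXL, CAV1 and ZEB1, 5 of 5 tested in both experiments), and of 6 markers that are low in such cells ESR1, PGR and CDH1 did not pass the filter on low counts in either experiment. The other 3 were expressed. ERBB2 was at 26.6, 26.3 and 27 TPM in the NC of the PKM2 experiment, EPCAM at 2.81, 3.7 and 2.3 TPM and GATA3 at 3.37, 3.19 and 3.64 TPM. All 3 fell after PKM2 knockdown, by 0.86, 0.70 and 0.83 on the log2 scale, and GATA3 fell by 0.87 after NONO knockdown. Of 6 markers of other cell types KRT5, KRT14 and the leukocyte marker PTPRC passed in neither experiment. The collagen gene COL1A1 (log2 fold change -0.72 and 0.34 after NONO and PKM2 knockdown) was called in both. The endothelial marker PECAM1 (0.86 and -0.55) was called after NONO knockdown. PDGFRB, tested in the PKM2 experiment alone (-1.77), was called there. Whether PDGFRB passed the filter only through its NC libraries was not examined. The part of these markers in the values of the Wnt genes was not tested. Total estimated counts ranged from 19861762 to 28455268 per library. NC replicate 1 for NONO and PKM2-knockdown replicate 3 stood farthest from the other libraries of their groups.

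Of the 57 genes, the same 32 passed the low-count filter and were tested in both experiments, and 25 were tested in neither. Transcripts of CTNNB1 were the most abundant, at 128 ± 4.35 TPM (SD, n = 3) in the NC of the NONO experiment and 134 ± 5.1 TPM in the NC of the PKM2 experiment. DKK1, a secreted inhibitor that binds LRP5 and LRP6, followed at 93.8 ± 10.3 and 96.8 ± 7.23 TPM, and LRP5 came next at 75.4 ± 6.99 and 72.2 ± 5.21 TPM. The ranges of these 3 genes over the 3 NC libraries did not overlap in either experiment. FZD2 and FZD6 followed at about equal levels, 31.6 ± 1.96 and 29.8 ± 0.963 TPM in the NONO experiment, and their NC ranges overlapped in both experiments. WNT5B was the most abundant ligand at 13.1 ± 2.07 and 13.9 ± 0.176 TPM, or 42.1% and 38.4% of the summed TPM of the WNT genes. Among the LGR receptors LGR4 carried 98.8% and 97.2% of the summed TPM, and LGR5 the rest, with 0.23 ± 0.01 and 0.403 ± 0.0513 TPM.

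**Figure D1:**
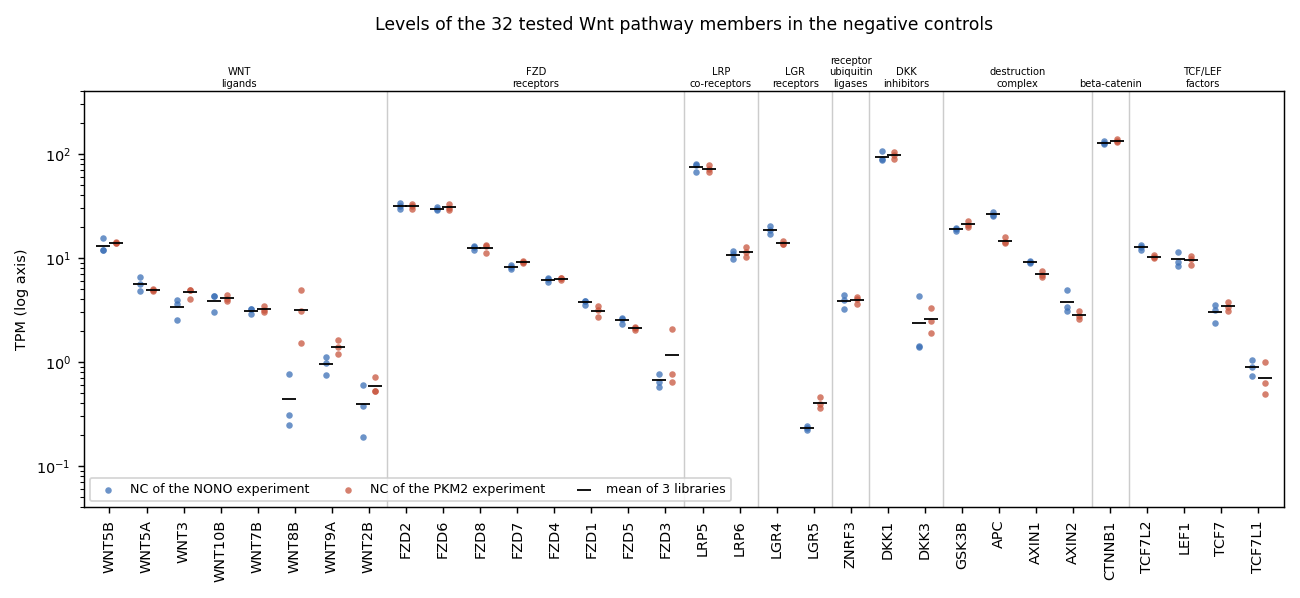
TPM on a log axis for the 32 tested Wnt pathway genes in the 3 NC libraries of each experiment (points) with their mean (bars), ordered by role and then by level. CTNNB1, DKK1 and LRP5 lie above 50 TPM in every NC library and LGR5 lies below 1 TPM in each of them.

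The 25 genes that did not pass the filter included all 4 R-spondins, all 4 SFRP genes and 11 of 19 WNT ligands, together with FZD9, FZD10, LGR6, RNF43, DKK2 and DKK4. Of these 25, 11 had 0 counts in all 12 libraries (WNT2, WNT3A, WNT6, WNT7A, WNT8A, FZD9, FZD10, LGR6, RSPO1, RSPO4 and DKK4). The others reached at most 6 counts in a library, except RNF43 with at most 12 counts and SFRP4 with at most 21, and none exceeded 0.45 TPM. Without the filter, 2 of the 12 with counts in the PKM2 experiment were called after PKM2 knockdown, where 11123 genes were called in all. These were RNF43, with 3 counts over the NC libraries and 23 over the knockdown libraries (adjusted p = 0.00944), and SFRP4, with 41 and 10 counts (adjusted p = 0.016). The share of all genes called without the filter was not computed, so these 2 calls do not set the genes apart.

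After NONO knockdown 12 of the 32 tested genes were called, 6 higher and 6 lower, at a Benjamini-Hochberg adjusted p below 0.05 in edgeR's quasi-likelihood test over all genes. This was 37.5% of those tested, beside 33.4% of all 14832 genes tested (16.2% higher and 17.2% lower). After PKM2 knockdown 24 of the 32 were called, 10 higher and 14 lower, or 75%, beside 68.4% of all 15524 genes tested (33.6% higher and 34.7% lower). Both shares were near the background, so the counts by themselves set the Wnt genes apart in neither experiment. The median log2 fold change of the 32 genes was 0.02 after NONO knockdown and -0.18 after PKM2 knockdown, beside -0.01 over all genes tested in each experiment. The study's own cutoff asks for a change of more than 2-fold and p below 0.05 before adjustment, and was applied here to the edgeR fit. There, 1 gene passed after NONO knockdown (LGR5, lower), beside 2.95% of all genes. At that cutoff 7 passed after PKM2 knockdown, with WNT7B higher and LGR5, TCF7, LEF1, TCF7L1, FZD8 and WNT2B lower, beside 20.8% of all genes. In bulk RNA, fewer cells of a type and less RNA per cell cannot be told apart. Below, a value after ± is the SE of a log2 fold change (knockdown minus NC, 3 against 3 libraries), and adjusted p is that of the same edgeR test.

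**Figure D2:**
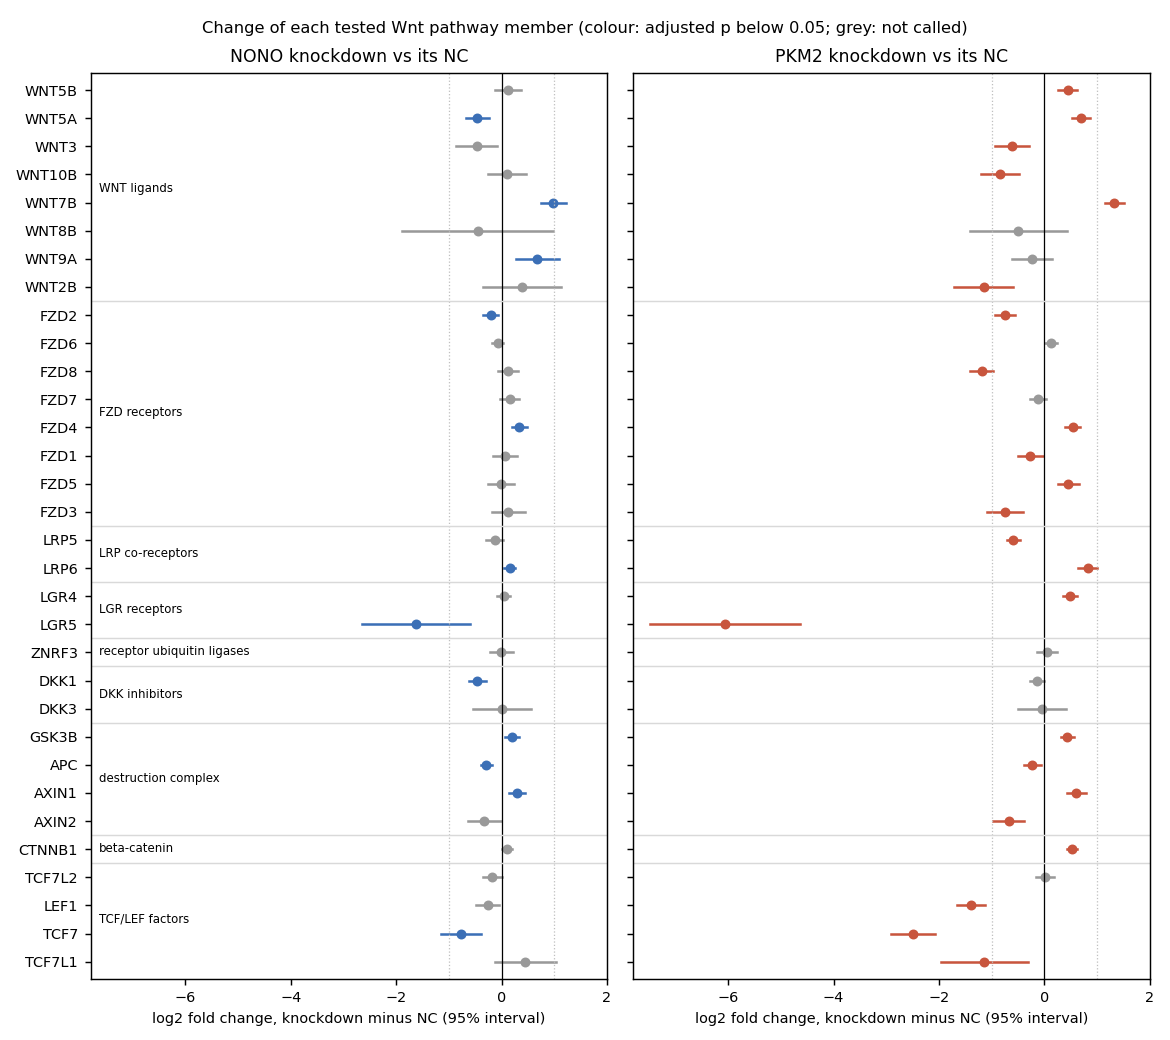
Log2 fold change with its 95% interval (lines) of the 32 tested Wnt pathway genes, grouped by role, after NONO knockdown (left) and PKM2 knockdown (right). Coloured points were called and grey points were not, and the dotted lines mark a 2-fold change. LGR5 lies farthest to the left in both panels, at -1.63 and -6.06.

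LGR5, a receptor for R-spondins and a marker of epithelial stem cells (chr12:71439770-71586310, plus strand, GRCh38), was lower after both knockdowns. It was counted 42, 27 and 34 times in the NC libraries of the PKM2 experiment and 0, 0 and 1 times after PKM2 knockdown. The 3 knockdown libraries thus held 1 count against 103 in NC, a ratio of 90.3 after scaling by depth with a 95% counting interval of 15.9 to 3602. The fitted log2 fold change was -6.06 ± 0.65 (adjusted p = 5.34e-06), which rests on a prior count and is no bound. In the NONO experiment LGR5 was counted 12, 16 and 15 times in NC and 5, 2 and 6 times after NONO knockdown, a ratio of 3.15 (95% counting interval 1.66 to 6.39), and fell by 1.63 ± 0.47 on the log2 scale (adjusted p = 0.0193). No LGR5 count of a knockdown library reached the lowest NC count in either experiment. The call after NONO knockdown was lost when 1 of 4 libraries was left out (the second or the third NC library or the first or second knockdown library). The deposited TPM of LGR5 did not follow the counts there. It was 0.23, 0.24 and 0.22 in NC and 3.97, 0.05 and 0.09 after NONO knockdown, so that the first knockdown library held the highest TPM from 5 counts, and the cause was not tested. LGR5 passed the low-count filter only through its NC libraries in both experiments, so a tested value could only lie on the lower side.

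LGR4, the abundant family member and also an R-spondin receptor, was higher after PKM2 knockdown, at 13.7, 13.7 and 14.5 TPM in NC and 19.2, 18.9 and 16.6 TPM in the knockdown libraries, with no overlap (log2 fold change 0.49 ± 0.06, adjusted p = 2.91e-05). After NONO knockdown its change of 0.04 ± 0.05 was not called. ZNRF3, a ligase that removes Frizzled receptors from the cell surface, was called in neither experiment, with 95% intervals of -0.22 to 0.22 after NONO knockdown and -0.14 to 0.24 after PKM2 knockdown on the log2 scale.

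Among the TCF/LEF factors, which bind DNA and recruit beta-catenin to target genes, 3 of 4 fell after PKM2 knockdown and 1 of 4 after NONO knockdown, beside 34.7% and 17.2% of all genes tested. TCF7 (chr5:134114711-134151865, plus strand, GRCh38) was at 3.12, 3.41 and 3.77 TPM in the NC of the PKM2 experiment and at 0.86, 0.59 and 0.52 TPM after PKM2 knockdown (log2 fold change -2.49 ± 0.19, adjusted p = 2.72e-07). In the other experiment TCF7 was at 3.16, 2.38 and 3.53 TPM in NC and at 1.26, 1.8 and 1.67 TPM after knockdown (log2 fold change -0.76 ± 0.17, adjusted p = 0.00531). In both experiments every knockdown library lay below every NC library. LEF1 (chr4:108047545-108168956, minus strand, GRCh38) was at 9.68, 8.47 and 10.3 TPM in NC and 4.37, 3.3 and 4.61 TPM after PKM2 knockdown and fell by 1.39 ± 0.12 on the log2 scale (adjusted p = 9.28e-07). After NONO knockdown LEF1 was at 8.81, 8.52 and 10.4 TPM against 8.35, 9.21 and 11.5 TPM in NC, and its change of -0.27 ± 0.10 was not called (adjusted p = 0.0615). TCF7L1, a family member best known as a repressor, was low throughout, at 0.63, 0.49 and 1.0 TPM in NC and 0.32, 0.22 and 0.45 TPM after PKM2 knockdown. Its fall of 1.14 ± 0.38 on the log2 scale (adjusted p = 0.0183) was lost without the third NC library, which held 56 of the 109 NC counts (-0.71), or without the second knockdown library. TCF7L2, the most abundant of the 4 in NC, was called in neither experiment, with a 95% interval of -0.16 to 0.18 after PKM2 knockdown. After NONO knockdown TCF7L2 was at 8.75, 8.54 and 10.38 TPM against 12.65, 13.27 and 12.05 TPM in NC, without overlap. The log2 ratio of these mean TPM was -0.46, and the tested change of the counts was -0.18 ± 0.08 (adjusted p = 0.116). The summed TPM of the 4 factors was 23.9 ± 1.16 in NC and 14.7 ± 1.67 after PKM2 knockdown (SD, n = 3), and the share of TCF7L2 in it was 42.9% in NC and 65.4% after knockdown.

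TCF7, LEF1 and FZD8 were among the genes that fell more than 2-fold after PKM2 knockdown. Their promoters are shown with that of DKK1, which held the most matches to the TCF/LEF word. The 250 bases before the RefSeq start (GRCh38.p14) were searched on both strands for CTTTGNN with A or T at both N, a core word that TCF/LEF factors are known to bind. No other motif was searched. RefSeq entries were found for 40 of the 57 genes and for 21 of the 32 tested. A word was present in 14.3% of all 27305 genes with an entry, in 3 of the 40 (7.5%) and in the same 3 of the 21 tested genes (14.3%), namely TCF7, TCF7L2 and DKK1. The share among the tested genes was that of all genes. A match is a description of the letters and not of a binding site, and the absence of one concerns these 250 bases. The sequences run 5′ to 3′ on the strand of the gene and end 1 base before the start, and capitals mark the word or its reverse complement.
TCF7 (chr5:134123368-134123617, plus strand, the entry with a match of 2 entries): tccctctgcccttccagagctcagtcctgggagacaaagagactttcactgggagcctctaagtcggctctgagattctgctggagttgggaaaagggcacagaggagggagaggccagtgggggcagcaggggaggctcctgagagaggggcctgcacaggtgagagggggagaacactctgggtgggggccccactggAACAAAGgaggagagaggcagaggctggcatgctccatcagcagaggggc
LEF1 (chr4:108166302-108166551, minus strand): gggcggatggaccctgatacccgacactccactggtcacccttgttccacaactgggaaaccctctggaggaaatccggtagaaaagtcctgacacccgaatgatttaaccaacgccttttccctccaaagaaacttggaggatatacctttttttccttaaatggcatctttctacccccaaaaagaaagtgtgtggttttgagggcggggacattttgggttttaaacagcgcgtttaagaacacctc
FZD8 (chr10:35642297-35642546, minus strand): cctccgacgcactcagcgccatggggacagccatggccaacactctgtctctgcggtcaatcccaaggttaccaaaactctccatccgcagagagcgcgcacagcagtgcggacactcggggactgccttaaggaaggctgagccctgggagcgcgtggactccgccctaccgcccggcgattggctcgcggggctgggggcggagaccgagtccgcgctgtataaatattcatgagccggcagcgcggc
DKK1 (chr10:52314031-52314280, plus strand): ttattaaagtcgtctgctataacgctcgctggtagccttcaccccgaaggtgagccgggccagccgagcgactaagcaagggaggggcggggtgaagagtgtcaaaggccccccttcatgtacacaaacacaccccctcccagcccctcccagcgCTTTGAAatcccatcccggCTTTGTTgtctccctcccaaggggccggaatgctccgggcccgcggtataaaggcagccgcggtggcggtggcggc
In DKK1 the words began 95 and 76 bases before the start. In TCF7 the reverse complement began 50 bases before the start of this entry. This TCF7 entry was printed because it held the match, and its stretch lies inside the gene as placed above. The other TCF7 entry held no match and is not printed. The LEF1 and FZD8 stretches held no match. The LEF1 stretch, like that of TCF7, lies inside the gene as placed above and not before its annotated 5′ end. TCF7L1 and WNT2B also fell more than 2-fold after PKM2 knockdown. Their entries held no match and are not printed, and LGR5 had no entry.

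CTNNB1, the beta-catenin gene (chr3:41194741-41260096, plus strand, GRCh38), was higher after PKM2 knockdown. It was at 131, 140 and 132 TPM in NC and at 183, 173 and 165 TPM after knockdown, with every knockdown library above every NC library (log2 fold change 0.53 ± 0.04, adjusted p = 4.08e-07). In the NONO experiment it was at 133, 125 and 126 TPM in NC and 133, 136 and 132 TPM after knockdown, and the change of 0.11 ± 0.04 was not called (adjusted p = 0.0641). These are RNA levels, and the amount or location of the protein was not measured in these libraries.

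In the complex that marks beta-catenin for degradation, the scaffold AXIN1 and the kinase GSK3B were higher and APC was lower after both knockdowns. AXIN1 was at 7.51, 6.79 and 6.58 TPM in NC and 9.49, 10.8 and 9.56 TPM after PKM2 knockdown (log2 fold change 0.61 ± 0.08), and at 8.88, 9.28 and 9.22 TPM in NC and 10.9, 11.6 and 10.2 TPM after NONO knockdown (0.30 ± 0.07). GSK3B changed by 0.43 ± 0.06 after PKM2 knockdown and by 0.19 ± 0.06 after NONO knockdown, and the latter call was lost without any 1 of 4 libraries (the second or the third NC or knockdown library) and with a replicate block. APC was at 26, 25.2 and 27.9 TPM in NC and 22.6, 21.4 and 22.2 TPM after NONO knockdown (-0.29 ± 0.05, adjusted p = 6.37e-04). After PKM2 knockdown APC was at 12.2, 12.6 and 9.14 TPM against 15.9, 13.9 and 14.2 TPM (-0.23 ± 0.07, adjusted p = 0.0132), and without the first NC library it was not called. The NC levels of some genes differed between the deposited tables, and more in TPM than in counts scaled to library size (CPM) for APC and WNT8B. Mean NC levels of APC were 26.4 TPM in the NONO table and 14.7 TPM in the PKM2 table. Its CPM there were 106 and 95.8. WNT8B was at 0.443 and 3.18 TPM, beside 0.618 and 0.685 CPM. AXIN1 differed in both measures, at 9.13 and 6.96 TPM and at 21.8 and 15.8 CPM. The cause was not tested, and levels are compared within a table.

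AXIN2, a scaffold related to AXIN1 and a widely used target gene of beta-catenin signalling (chr17:65528563-65561647, minus strand, GRCh38), moved opposite to AXIN1 after PKM2 knockdown. It was at 2.59, 3.06 and 2.79 TPM in NC and at 1.37, 1.56 and 1.44 TPM after PKM2 knockdown, with no overlap (log2 fold change -0.68 ± 0.13, adjusted p = 7.48e-04). After NONO knockdown it was at 2.05, 2.21 and 2.11 TPM against 3.09, 4.89 and 3.38 TPM in NC. Its counts, which the test uses, were 115, 123 and 123 against 125, 172 and 179 in NC. The log2 ratio of its mean TPM was larger than the tested change in both experiments, at -0.83 after NONO knockdown and -0.95 after PKM2 knockdown. The groups did not overlap, yet the log2 fold change of -0.33 ± 0.14 was not called (adjusted p = 0.102). It was called without the first NC library, at -0.44.

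Of the 8 WNT ligands tested, 3 rose and 3 fell after PKM2 knockdown, and 2 rose and 1 fell after NONO knockdown. The called shares of 75% and 37.5% lay near those of all genes (68.4% and 33.4%). WNT7B, a ligand that can act through beta-catenin (chr22:45920362-45977129, minus strand, GRCh38), rose after both. It was at 3.05, 3.15 and 3.43 TPM in NC and 7.59, 7.64 and 6.89 TPM after PKM2 knockdown (log2 fold change 1.33 ± 0.08, adjusted p = 5.86e-08). In the other experiment it was at 2.9, 3.26 and 3.2 TPM in NC and 6.29, 5.39 and 5.76 TPM after knockdown (0.98 ± 0.11, adjusted p = 4.93e-05). Both NC groups lay near 3 TPM, and all 6 knockdown libraries lay above 5 TPM. WNT5A, the best known ligand that signals without beta-catenin (chr3:55465715-55490539, minus strand, GRCh38), was the only one of the 32 genes called in opposite directions, beside 7.97% of the 14525 genes tested in both. It was at 5.61, 6.51 and 4.77 TPM in NC and 3.06, 3.83 and 2.91 TPM after NONO knockdown (-0.46 ± 0.10, adjusted p = 0.00456). There the log2 ratio of its mean TPM was -0.79, larger than the tested change of the counts. In the PKM2 experiment it was at 4.99, 4.78 and 4.92 TPM in NC and 6.75, 8.69 and 7.1 TPM after knockdown (0.69 ± 0.08, adjusted p = 9.44e-06). The knockdown libraries lay below their NC in the first case and above their NC in the second.

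WNT5B, the related and more abundant ligand, rose by 0.44 ± 0.08 after PKM2 knockdown (adjusted p = 4.78e-04) and was not called after NONO knockdown (0.13 ± 0.11). WNT9A was called after NONO knockdown, where it was at 0.75, 0.98 and 1.12 TPM in NC and 1.55, 1.46 and 1.37 TPM after knockdown (0.68 ± 0.19, adjusted p = 0.0157). That call was lost without the first or the second knockdown library. WNT10B was at 3.89, 4.41 and 4.01 TPM in NC and 1.86, 1.9 and 2.51 TPM after PKM2 knockdown (-0.85 ± 0.16, adjusted p = 6.81e-04). WNT2B was at 0.72, 0.52 and 0.52 TPM in NC and 0.23, 0.15 and 0.19 TPM after PKM2 knockdown (-1.15 ± 0.25, adjusted p = 0.00164). Both ligands were at lower levels in every PKM2-knockdown library than in any NC library. WNT3 fell by 0.61 ± 0.15 on the log2 scale after PKM2 knockdown, and WNT8B was called in neither experiment. The summed TPM of the WNT genes was 36.2 ± 1.53 in NC and 40.4 ± 2.64 after PKM2 knockdown, and 31.1 ± 0.97 in NC and 31.8 ± 0.74 after NONO knockdown (SD, n = 3).

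Of the 8 Frizzled receptors tested, 4 were lower and 2 higher after PKM2 knockdown (75% called, beside 68.4% of all genes), and after NONO knockdown 1 was lower (FZD2) and 1 higher (FZD4) (25%, beside 33.4%). FZD8 (chr10:35638249-35642278, minus strand, GRCh38) was at 13.1, 11.2 and 13.2 TPM in NC and 4.72, 4.95 and 5.06 TPM after PKM2 knockdown (log2 fold change -1.19 ± 0.10, adjusted p = 5.19e-07). FZD2 was at 31.8, 29.5 and 32.8 TPM in NC and 15.3, 19.2 and 16.9 TPM after PKM2 knockdown (-0.75 ± 0.08, adjusted p = 9.12e-06). The NONO experiment gave FZD2 31.8, 33.4 and 29.5 TPM in NC and 27.7, 26.4 and 24.8 TPM after knockdown (-0.21 ± 0.06), a call lost without any 1 of 3 libraries (the second NC or the second or the third knockdown library). FZD3 was counted 182, 184 and 214 times in NC and 110, 106 and 86 times after PKM2 knockdown (-0.75 ± 0.15, adjusted p = 9.93e-04). Its deposited TPM was 0.64, 0.77 and 2.08 in NC and 0.7, 0.44 and 0.73 after knockdown, with 1 high NC value and overlapping groups, although the scaled counts did not overlap. FZD1 fell by 0.27 ± 0.11 (adjusted p = 0.0472), a call lost in DESeq2 and without any 1 of 4 libraries (the first or the third NC or knockdown library).

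FZD4 was at 6.08, 6.47 and 6.41 TPM in NC and 9.05, 8.86 and 7.24 TPM after PKM2 knockdown (0.53 ± 0.07, adjusted p = 2.55e-05). Its NC of the NONO experiment was at 6.32, 5.85 and 6.4 TPM and the knockdown at 7.76, 7.49 and 7.37 TPM (0.34 ± 0.06, adjusted p = 0.00165), so it was higher in every knockdown library of both experiments. FZD5 rose by 0.46 ± 0.09 after PKM2 knockdown. FZD6 and FZD7 were called in neither experiment. The summed TPM of the Frizzled genes was 96.4 ± 1.36 in NC and 74.1 ± 3.28 after PKM2 knockdown, without overlap, and 95.2 ± 1.88 in NC and 92.3 ± 6.07 after NONO knockdown (SD, n = 3). Within this sum, FZD2 went from 32.5% to 23.1% and FZD8 from 12.97% to 6.64% after PKM2 knockdown, while the share of FZD6 was 31.8% in NC and 40.9% after knockdown.

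LRP5 and LRP6, the co-receptors that pass the signal on when a WNT protein bridges them to a Frizzled receptor, moved in opposite directions after PKM2 knockdown. LRP5 (chr11:68312609-68449275, plus strand, GRCh38) was at 67.4, 71.4 and 77.7 TPM in NC and 46.2, 45.6 and 40.8 TPM after knockdown (log2 fold change -0.59 ± 0.06, adjusted p = 3.01e-06). LRP6 (chr12:12116025-12267012, minus strand, GRCh38) was at 10.2, 12.7 and 11.5 TPM in NC and 19.8, 16.9 and 14.9 TPM after knockdown (0.82 ± 0.08, adjusted p = 2.66e-06). For both genes the groups did not overlap, and the share of LRP6 in their summed TPM rose from 13.1%, 15.1% and 12.9% in the NC libraries to 30.0%, 27.0% and 26.8% in the knockdown libraries. In the NONO experiment LRP5 was at 67.4, 80.2 and 78.7 TPM in NC and 65.1, 71.3 and 67.8 TPM after knockdown and was not called (-0.13 ± 0.08). LRP6 was at 11.7, 10.9 and 9.76 TPM in NC and 11.9, 10.6 and 11.9 TPM after NONO knockdown. Its TPM groups overlapped and its scaled counts did not, and the call at 0.16 ± 0.05 (adjusted p = 0.0228) was lost without any 1 of 4 libraries (the third NC library or any knockdown library).

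**Figure D3:**
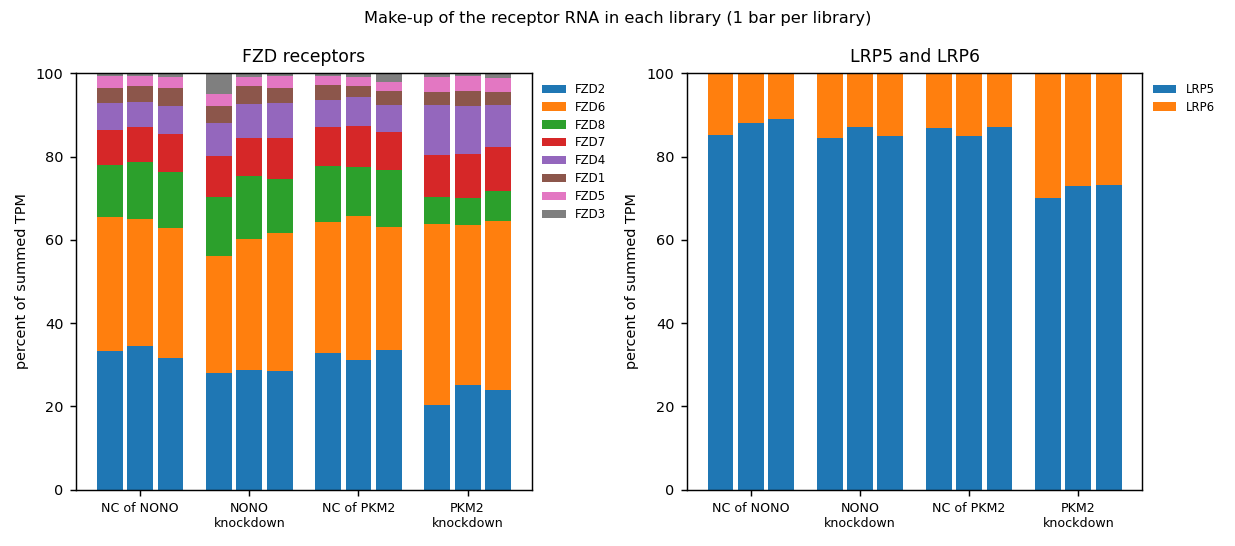
Share of each gene in the summed TPM (percent) of the Frizzled receptors (left) and of LRP5 and LRP6 (right), with 1 bar per library. After PKM2 knockdown the bars of FZD2 and FZD8 are shorter than in NC, and LRP6 takes 26.8% to 30.0% of the co-receptor TPM against 12.9% to 15.1% in NC.

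Over all genes, the log2 fold change after PKM2 knockdown varied with base composition. Genes in the bin of highest GC content (65.8% GC on average) had a median log2 fold change of -0.27, and those in the lowest bin (36.7% GC) one of 0.14. In the NONO experiment these medians were -0.06 and 0.02. With the median of each GC and length bin subtracted, LRP5 stood at -0.22, FZD2 at -0.46 and FZD8 at -0.86, and WNT7B at 1.57. TCF7 then stood at -2.30, LEF1 at -1.37 and LRP6 at 0.93. All 24 genes called after PKM2 knockdown kept their sign, and the part of base composition in their values was not tested. The median GC content was 46.2% for the 10 called higher and 53.8% for the 14 called lower.

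Some of these genes share exons with a neighbour on the opposite strand in GENCODE 29. The labels name a TruSeq RNA kit and do not state whether strand was used in counting, so these reads cannot be told apart. FZD4 shares 18.9% of its exonic bases with PRSS23, which rose by 0.37 after NONO knockdown and was not called after PKM2 knockdown (-0.14). WNT2B shares 21.2% with ST7L, which fell by 0.75 on the log2 scale after PKM2 knockdown (adjusted p = 0.000444). TCF7 shares 2.09% with SKP1, an abundant gene at a mean of 548 TPM, which rose by 0.24 after PKM2 knockdown and fell by 0.18 on the log2 scale after NONO knockdown. On the same strand, APC shares 1.85% with AC008575.1, at a mean of 0 TPM in the NONO experiment and 1.01 TPM in the PKM2 experiment. AC008575.1 rose by 2.13 after PKM2 knockdown (adjusted p = 5.1e-07). The part of these neighbours in the values of FZD4, WNT2B, TCF7 and APC was not tested.

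DKK1 (chr10:52314296-52318042, plus strand, GRCh38) made up over 97% of the TPM of the DKK genes. It was at 106, 86.7 and 89 TPM in NC and 69.9, 71.6 and 68.9 TPM after NONO knockdown, with no overlap (log2 fold change -0.46 ± 0.08, adjusted p = 8.24e-04). After PKM2 knockdown it was at 85.6, 76.5 and 78.4 TPM against 97.9, 103 and 89.1 TPM in NC, and the change of -0.14 ± 0.06 was not called (adjusted p = 0.0596). It was called there with limma on log2(TPM + 1), at -0.27, and without the third NC library or the third knockdown library. DKK3, a more distant family member, was called in neither experiment.

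**Figure D4:**
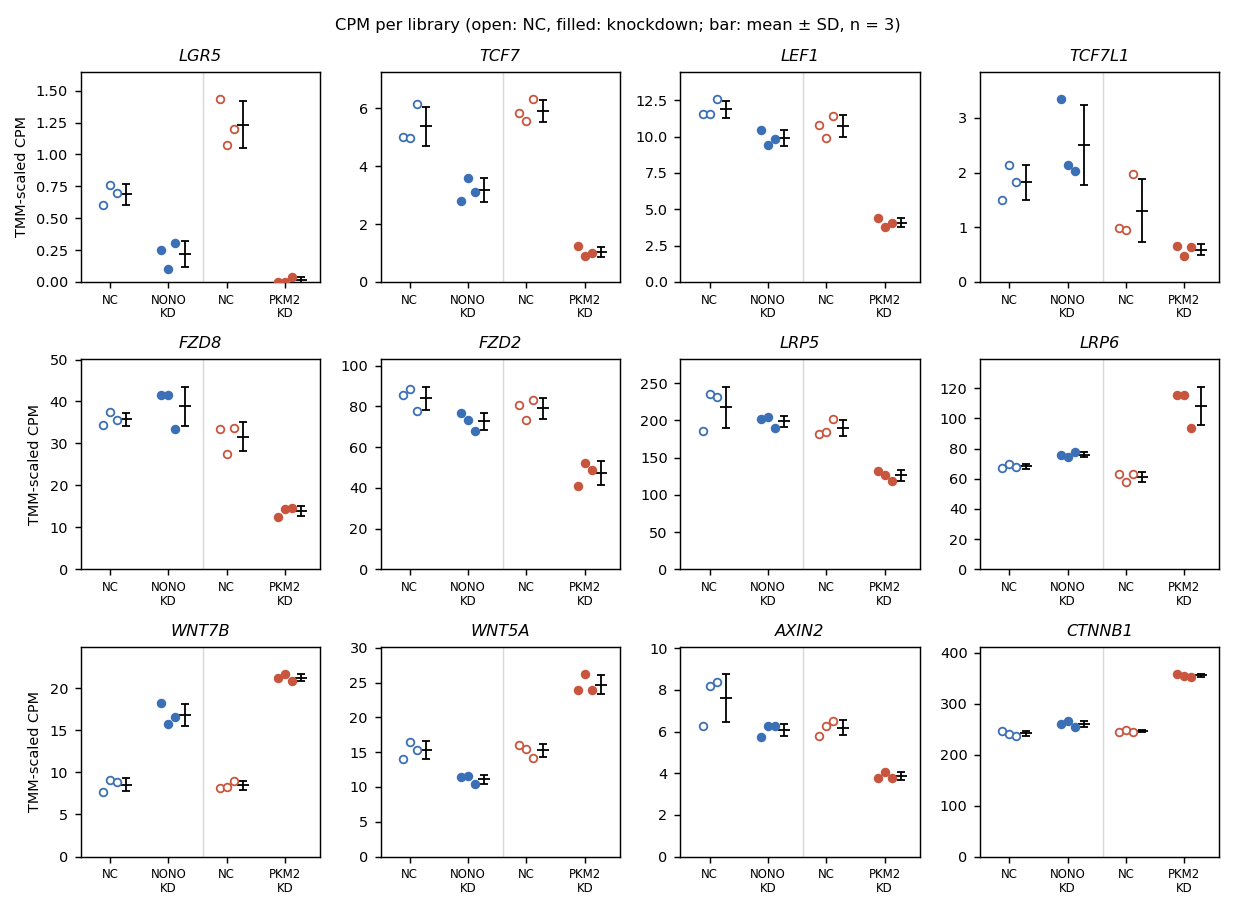
CPM (counts scaled to library size with TMM factors, axes from 0) of 12 Wnt pathway genes in each library, with open points for NC, filled points for knockdown and bars for the mean ± SD (n = 3). LGR5, TCF7, LEF1 and AXIN2 lie lower after PKM2 knockdown than in NC, and LRP6, WNT7B, WNT5A and CTNNB1 lie higher, in each case without overlap.

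Of the 32 genes, 10 were called after both knockdowns, 9 of them in the same direction (28.1%, beside 19.3% of all genes tested in both). LGR5, TCF7, FZD2 and APC were lower and WNT7B, AXIN1, GSK3B, FZD4 and LRP6 were higher after both. LGR5 passed the filter only through NC in both experiments, so its shared direction was set by the filter. As given above, leaving out 1 library could end the calls of LGR5, GSK3B, FZD2 and LRP6 after NONO knockdown. The same held for the call of APC after PKM2 knockdown. The size of the change was compared in 1 edgeR fit over the 12 libraries, as the log2 fold change after PKM2 knockdown minus that after NONO knockdown. It was called for 22 of 33 genes, 10 with a higher and 12 with a lower value after PKM2 knockdown, beside 53.1% of all 15995 genes tested. SFRP4 passed the filter only in this joint fit, where it was not called. TCF7 differed by -1.74 ± 0.25 (adjusted p = 1.63e-05) and thus fell further after PKM2 knockdown. For LGR5 the fitted difference was -4.41 ± 0.96 (adjusted p = 8.72e-04). It rests on the prior count, since the PKM2-knockdown libraries held 1 count in all, and on a gene that passed the filter through NC alone, and it ranged from -6.24 to -3.96 when 1 library was left out. FZD8 differed by -1.33 ± 0.14 (adjusted p = 3.18e-07) and WNT5A by 1.14 ± 0.13 (adjusted p = 7.35e-07). For AXIN2 the difference was not called, with a 95% interval of -0.77 to 0.03, and neither was that for APC (-0.14 to 0.24) or FZD4 (-0.01 to 0.38).

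**Figure D5:**
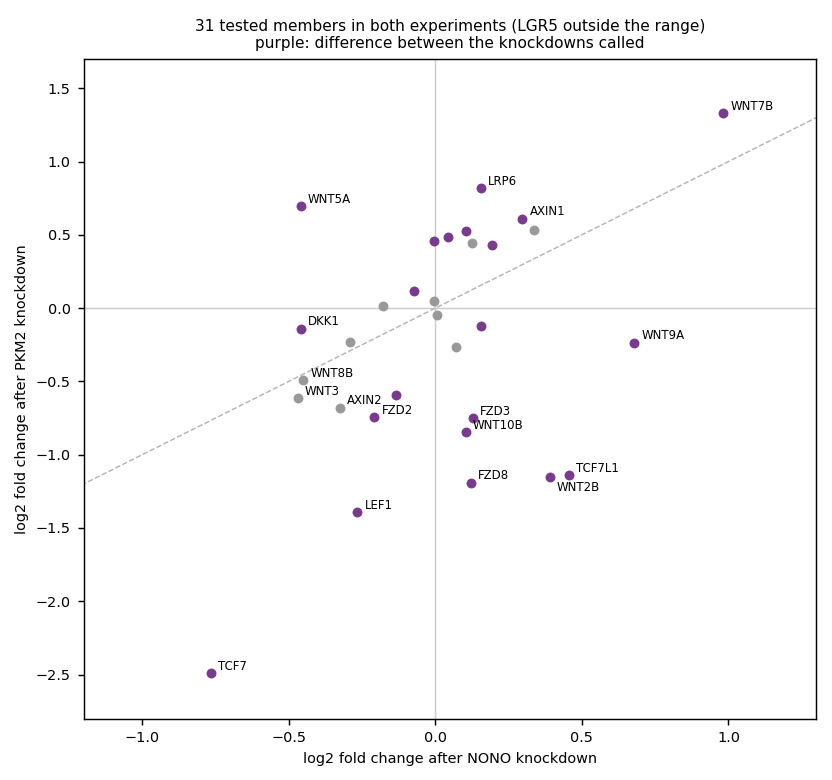
Log2 fold change after PKM2 knockdown against that after NONO knockdown for 31 of the 32 tested genes, with the line of equal change dashed (LGR5, at -1.63 and -6.06, lies outside the range). Purple points had a called difference between the knockdowns. TCF7 lies lowest, WNT7B highest and WNT5A in the upper left.

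The other genes of the pathway were counted in lists. Of the genes for secretion and extracellular control of WNT proteins, 6 of 16 were tested, and all 6 fell after PKM2 knockdown and 4 after NONO knockdown (median log2 fold change -1.35 and -0.34), beside 34.7% and 17.2% of all genes that were lower. KREMEN1 and KREMEN2, receptors that work with DKK1 to remove LRP6, fell by 2.58 and 3.15 on the log2 scale after PKM2 knockdown and by 1.07 and 0.60 after NONO knockdown. TRABD2A, a protease that inactivates WNT proteins, fell by 1.73 after PKM2 knockdown and by 0.43 after NONO knockdown. Whether KREMEN1, KREMEN2 or TRABD2A passed the filter only through NC was not examined. PORCN, which attaches the lipid that WNT proteins need, was at 15.6, 12.4 and 16.6 TPM in NC and 8.78, 8.97 and 9.24 TPM after PKM2 knockdown (-0.49 ± 0.11).

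Among 24 genes of the cytoplasmic relay, 21 were tested, of which 8 rose and 9 fell after PKM2 knockdown and 2 rose and 2 fell after NONO knockdown (81% and 19% called, beside 68.4% and 33.4% of all genes). FRAT2, a GSK3-binding protein, rose by 1.59 and 0.56, and AMER1, which binds APC, fell by 1.87 and 0.35 on the log2 scale after PKM2 and NONO knockdown. DACT3, at under 1 TPM in NC, fell by 1.87 and 1.80, and whether it passed the filter only through NC was not examined. DVL2, an adaptor below the Frizzled receptors, fell by 0.63 after PKM2 knockdown and rose by 0.37 after NONO knockdown. Of 13 tested nuclear partners of beta-catenin (15 listed), 4 rose and 6 fell after PKM2 knockdown and 5 rose and 1 fell after NONO knockdown (76.9% and 46.2% called, beside the same 68.4% and 33.4%). BCL9, which links beta-catenin to the PYGO proteins, fell by 2.06 on the log2 scale after PKM2 knockdown (adjusted p = 5.04e-09) and was not called after NONO knockdown (0.01), and PYGO2 rose by 1.31 and 0.41. CTNNBIP1, an inhibitor of beta-catenin's binding to TCF factors, rose by 0.61 after PKM2 knockdown and fell by 0.66 after NONO knockdown.

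Of 13 tested genes for receptors and planar polarity that act without beta-catenin (15 listed), 5 rose and 6 fell after PKM2 knockdown and 2 rose and 5 fell after NONO knockdown, or 84.6% and 53.8% called against that background of 68.4% and 33.4%. PTK7, a WNT co-receptor, was at 35.1, 40.9 and 37.2 TPM in NC and 9.46, 8.13 and 9.28 TPM after PKM2 knockdown (-2.00 ± 0.07) and fell by 0.66 after NONO knockdown. The polarity cadherin CELSR2 fell by 2.78 and 0.92 on the log2 scale, and ROR1, a receptor for WNT5A, rose by 1.47 after PKM2 knockdown and was not called after NONO knockdown (0.11). Of 18 known target genes, 12 were tested, of which 2 rose and 5 fell after PKM2 knockdown and 0 rose and 4 fell after NONO knockdown (median log2 fold change -0.32 and -0.22). The called shares of 58.3% and 33.3% were not above those of all genes (68.4% and 33.4%). Most of the falls were those of LGR5, TCF7, LEF1, AXIN2 and DKK1 given above. Of the 6 tested targets outside the 57 genes, BMP4 (0.93) and the cyclin gene CCND1 (0.54) rose and TNFRSF19 fell by 0.88 after PKM2 knockdown, CCND1 fell by 0.42 after NONO knockdown, and MYC was not called after either (-0.30 and -0.03).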

How the data were processed

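RNA-seq of 12 MDA-MB-231 libraries (4 groups of 3, from the labels) was analysed. The authors deposited 1 table per experiment. Its estimated counts are fractional in part, and its TPM values were scaled by length and depth by the authors. A gene length in bases (a score, as deposited) served for the bins of length. Per the labels, the submitters' processing notes name fastp, HISAT2, StringTie, RSEM, DESeq2, edgeR, limma and the build hg19, without roles. The tables also hold the authors' own fold changes, p-values and group means, which were not used, and no coordinates. Positions of genes came from GENCODE 29 (GRCh38) by gene ID, for location only. As column names repeat between the tables, each column took its experiment from its own table.

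Estimated counts were rounded and tested with edgeR 4.0.16 (R 4.3.3, glmQLFit and glmQLFTest, TMM factors, filterByExpr defaults), each experiment separately and the difference of responses over 12 libraries. Genes were called at a Benjamini-Hochberg adjusted p below 0.05 over all genes tested. Symbols of the Wnt genes were matched in both tables. Those named with the value of every library were LGR5, LRP5, LRP6, AXIN2, CTNNB1 and the 10 called genes with the largest change in each experiment, with some others added after their values were seen. The genes, lists and tests were chosen with earlier results of these data known. Alternatives were DESeq2 1.42.0, RLE factors, testing without a low-count filter, a block for replicate number, limma 3.58.1 on log2(TPM + 1) and log2(TPM + 0.1) for a mean TPM of at least 1 or without that filter, the cutoff of the study, each library left out, and, added after seeing the data, subtraction of medians in 20 bins of GC content and of length. Replicate libraries differed beyond counting noise. Intervals of count ratios (95%) cover counting error only.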

Additional observations from a re-analysis of the deposited data

Results flagged for a closer look

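For 22 Wnt pathway genes the response differed between the knockdowns, by the test of the difference (log2 fold change after PKM2 knockdown minus that after NONO knockdown, edgeR over 12 libraries, adjusted p below 0.05). The values were lower after PKM2 knockdown for LGR5 (-4.41), TCF7 (-1.74), TCF7L1 (-1.61) and LEF1 (-1.14). Among the ligands they were lower for WNT2B (-1.56), WNT10B (-0.96) and WNT9A (-0.93). Among the receptors they were lower for FZD8 (-1.33), FZD3 (-0.89), FZD2 (-0.55), LRP5 (-0.47) and FZD7 (-0.29). The values were higher after PKM2 knockdown for WNT5A (1.14) and WNT7B (0.33), for LRP6 (0.65), FZD5 (0.45), LGR4 (0.43) and FZD6 (0.18), and for CTNNB1 (0.41), AXIN1 (0.30), GSK3B (0.23) and DKK1 (0.30). For FZD6 and FZD7 neither knockdown alone gave a call. The adjusted p lay nearest to 0.05 for WNT7B (0.0432) and FZD6 (0.0407). Leaving out 1 of the 12 libraries ended the call in 8 of 12 fits for WNT7B, 7 for FZD6, 6 for FZD7, 5 for GSK3B, 4 for AXIN1, 2 for DKK1 and 1 for FZD5. The replicate block ended it for WNT7B, FZD6, GSK3B and AXIN1, and testing without the low-count filter for these 4 and FZD7. DESeq2 ended it for WNT7B and FZD7. The LGR5 value rests on 1 count in the PKM2-knockdown libraries. With the GC and length trend removed from each experiment, a value with no test chosen after seeing the data, the difference was -0.13 for LRP5, -0.30 for FZD2, -0.19 for FZD7, 0.08 for GSK3B, 0.11 for FZD6, 0.19 for DKK1, 0.55 for AXIN1 and 0.54 for WNT7B.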

How the results depend on the processing

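With limma on log2(TPM + 1), on log2(TPM + 0.1) and on log2(TPM + 1) without the TPM filter, 2645, 2657 and 1699 genes were called after NONO knockdown in place of 4954, and the last left 2 Wnt genes in place of 12. The share of called genes that were higher was 34.4% with limma on log2(TPM + 1) against 48.4%, and the Wnt genes split into 1 higher and 7 lower. With the pseudocount of 0.1, the log2 fold changes after PKM2 knockdown had a median of -0.10 over the genes tested. The cutoff of the study was applied to the edgeR fit used here, so the counts are not those the study reported. At that cutoff 437 genes and 1 Wnt gene were called after NONO knockdown, and 3234 genes and 7 Wnt genes after PKM2 knockdown. LGR5 after NONO knockdown turned to 0.54 with limma on log2(TPM + 1) without the TPM filter (adjusted p = 0.674), where 1 knockdown library held 3.97 TPM from 5 counts. Leaving out 1 library gave 7 to 17 Wnt genes (3554 to 6249 genes) after NONO knockdown, with 17 without the first NC library and 7 without the second knockdown library. Without that NC library AXIN2 (-0.44), CTNNB1 (0.13), LRP5 (-0.23), WNT3 (-0.62) and WNT5B (0.27) were called in addition. It gave 23 to 25 Wnt genes (9891 to 10863) after PKM2 knockdown and 18 to 23 (7969 to 8526) for the difference. Same-numbered libraries correlated at -0.07 to 0.04 in their deviations, so the numbers were not taken to pair them. With a replicate block 11, 23 and 18 Wnt genes were called after NONO knockdown, after PKM2 knockdown and for the difference (4351, 10525 and 8239 genes). With 3 libraries a group, the counts of LGR5, WNT8B, TCF7L1 and WNT2B give wide intervals.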
